A study of Mus musculus with 2 samples.

Results

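The genes described here build or regulate the cytoskeleton of neurons: Nefl, Nefm, Nefh, Ina, Map2, Mapt, Tubb3, Stmn2, Dcx and Gap43. They were taken by name, as 10 of the 21938 protein-coding genes of GENCODE M21, and their open chromatin was read from peaks and footprints within 500 bp of every annotated start site and from distal peaks in the gene body with 50 kb on each side. DNase-seq had been done on left cerebral cortex tissue, with 1 library from each of 2 females at an age of 10 days, labelled as biological replicates 1 and 2; their strain was B6CASTF1/J. B6CASTF1/J is the first-generation cross of C57BL/6J with the wild-derived strain CAST/EiJ, and the parental alleles were not told apart here. Both libraries belong to 1 group with no treatment, so the values below describe this tissue and are set beside those of all protein-coding genes. Cortex was sampled whole, so a weak peak from few cells and a weak peak in every cell cannot be told apart.

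Neurofilaments are the intermediate filaments of axons. They assemble from the light, medium and heavy chains, encoded by Nefl, Nefm and Nefh, together with alpha-internexin, encoded by Ina, and they set axon calibre. Microtubules are polymers of tubulin; Tubb3 encodes the neuronal class of beta-tubulin, Map2 and Mapt encode proteins that bind microtubules in dendrites and axons, Dcx encodes a microtubule-binding protein of migrating young neurons, and Stmn2 encodes a stathmin that binds free tubulin in growing axons. Gap43 encodes a membrane protein of the growth cone. DNase I cuts DNA that is not held in closed chromatin, so clustered cuts mark promoters and enhancers, and short stretches spared within them are called footprints.

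The sequences below show DNA before 4 gene starts and in peaks of the set. They run 5′ to 3′ on the coding strand of each gene, with bases inside a footprint of either library in capitals. The RefSeq promoter table (GRCm38.p6) matched 4 of the 10 genes, Tubb3, Map2, Ina and Dcx, and the part of each window before the GENCODE gene start is printed, at most 250 bases long. The stretches are chr8:123411303-123411423 for Tubb3, chr1:66175079-66175272 for Map2 and chr19:47014431-47014680 for Ina, all on the plus strand, and chrX:143933312-143933469 on the minus strand for Dcx. The Dcx stretch lies outside the Dcx peaks and holds no footprint base. Those peaks lay past the start, 51 to 269 bp after it in replicate 1 and 171 to 285 bp in replicate 2.
Tubb3 before the start: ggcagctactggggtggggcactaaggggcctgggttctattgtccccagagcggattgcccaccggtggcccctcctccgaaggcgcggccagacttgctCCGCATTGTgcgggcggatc
Map2 before the start: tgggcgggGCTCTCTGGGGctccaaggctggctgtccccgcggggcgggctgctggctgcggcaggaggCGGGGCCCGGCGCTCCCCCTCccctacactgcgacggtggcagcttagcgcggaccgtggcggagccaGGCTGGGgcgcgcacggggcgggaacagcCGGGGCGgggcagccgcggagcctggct
Ina before the start: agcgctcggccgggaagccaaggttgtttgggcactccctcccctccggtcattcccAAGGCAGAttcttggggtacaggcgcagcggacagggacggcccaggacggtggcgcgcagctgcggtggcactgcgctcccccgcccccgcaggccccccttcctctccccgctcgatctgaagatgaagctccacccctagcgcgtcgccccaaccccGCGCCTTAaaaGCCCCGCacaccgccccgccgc
Dcx before the start: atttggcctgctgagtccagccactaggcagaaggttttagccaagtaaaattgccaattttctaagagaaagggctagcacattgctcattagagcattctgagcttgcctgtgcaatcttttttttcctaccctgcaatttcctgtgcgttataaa

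Past the GENCODE gene starts, 2 footprints of Tubb3 called in both libraries are shown because they lie in the strongest promoter of the set. An intron peak of Tubb3 is shown because it is among the strongest distal peaks. The middle 300 bases of a coding-exon peak of Nefh are shown because it is far stronger than any peak at the Nefh start. Both Tubb3 footprints lie before the other annotated Tubb3 start (chr8:123411590) and within the 250 bases before the RefSeq start. The footprints cover chr8:123411452-123411473 and chr8:123411501-123411521, the intron peak chr8:123412601-123412840, all on the plus strand, and the Nefh stretch chr11:4947101-4947400 on the minus strand.
Tubb3 footprint 28 to 49 bp after the start: TGCCGCATTGTGCGGCGCTCCA
Tubb3 footprint 77 to 97 bp after the start: CAGCGAGGGCGGGGCAGCCTC
Tubb3 intron peak: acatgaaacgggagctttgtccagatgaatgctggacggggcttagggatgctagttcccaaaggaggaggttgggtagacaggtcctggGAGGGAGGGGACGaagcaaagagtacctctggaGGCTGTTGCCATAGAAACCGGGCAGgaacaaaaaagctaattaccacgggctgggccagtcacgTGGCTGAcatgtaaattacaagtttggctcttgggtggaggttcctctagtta
Nefh coding-exon peak: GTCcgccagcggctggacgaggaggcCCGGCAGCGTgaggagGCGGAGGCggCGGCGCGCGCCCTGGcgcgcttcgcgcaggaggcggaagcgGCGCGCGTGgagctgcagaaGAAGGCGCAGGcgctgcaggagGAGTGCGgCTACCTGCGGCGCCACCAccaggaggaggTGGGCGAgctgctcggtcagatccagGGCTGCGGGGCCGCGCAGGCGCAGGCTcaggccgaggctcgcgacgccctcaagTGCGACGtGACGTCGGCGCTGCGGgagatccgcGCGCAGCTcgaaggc

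Of the 10 genes, 9 had a promoter peak in the stricter peak list of both libraries, against 55.2% of all protein-coding genes. Nefh was the exception, with a peak in replicate 2 only. In the larger peak lists the count was again 9, against 61% of genes. With only the start of the gene record counted, it was 8, against 49.5%, since the Gap43 start then dropped out as well. The stricter lists held 60071 peaks in replicate 1 and 70563 in replicate 2. Signal is given on the deposited scale, 1 value per peak, and the promoter signal of a gene is its highest promoter peak in each library; the median over protein-coding genes with a promoter peak in both libraries, called open below, was 2.89.

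Most of these promoters were open but weak. The median mean signal of the 9 genes was 1.52, and 1 of them lay above the median of open promoters. Tubb3, the neuronal beta-tubulin, had the highest signal, 2.28 in replicate 1 and 4.48 in replicate 2 (mean 3.38 ± 1.55, SD, n = 2), percentile 58.3 of open promoters. Mapt, which encodes tau, followed with 2.06 and 3.40 (2.73 ± 0.94), percentile 47.3. Tubb3 was the higher of the pair in each library. Their means differed by less than the SD of either gene. Those SDs include a shift that both genes share, since 97.3% of open promoters were higher in replicate 2.

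The other microtubule-binding genes were lower. Map2 had 1.49 in replicate 1 and 2.43 in replicate 2 (1.96 ± 0.66), percentile 32.9. The highest Map2 peak was not the same in the 2 libraries, as described with its start sites. Stmn2 had 1.20 and 1.84 (1.52 ± 0.45), percentile 23.1. Dcx, which marks migrating and newly formed neurons, had 0.975 and 0.644 (0.810 ± 0.23), percentile 6.40.

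The intermediate-filament genes formed the low end together with Dcx. Nefl had 0.975 in replicate 1 and 1.30 in replicate 2 (1.14 ± 0.23), percentile 13.7. Nefm, its neighbour on chromosome 14, had 0.650 and 0.834 (0.742 ± 0.13), percentile 5.09. Ina, on chromosome 19, had 0.955 and 1.83 (1.39 ± 0.62), percentile 20.0, and here the values of the libraries came from different peaks. Nefh, on chromosome 11, had no promoter peak in replicate 1 and 0.478 in replicate 2. Gap43 had 1.81 and 1.58 (1.70 ± 0.16), percentile 27.3, but at a peak near an internal start site far from the start of the gene.

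**Figure D1:**
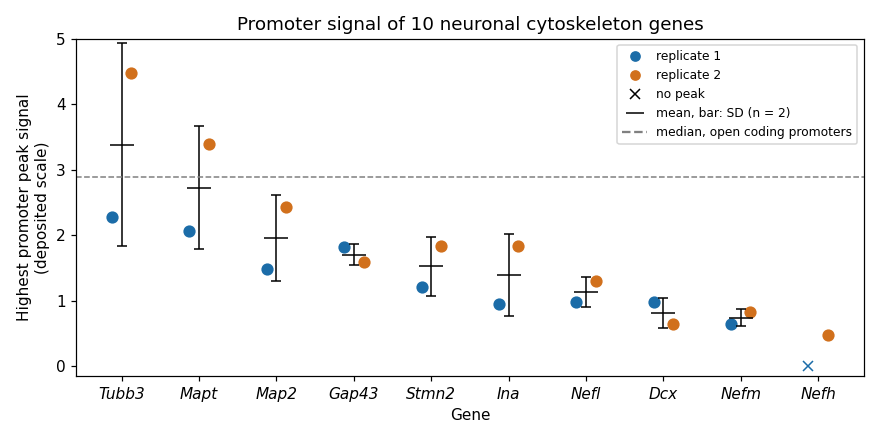
Highest promoter peak signal (deposited scale) of each gene in replicate 1 and replicate 2, with the mean and SD over the 2 libraries and, as a dashed line, the median of open protein-coding promoters (2.89). The mean of Tubb3 lies above the line, those of the other 8 genes with a mean lie below it, and Nefh has a peak in replicate 2 only.

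At the intermediate-filament genes peaks of the stricter lists lay past the start in coding exons. They did so in both libraries at Nefl, Nefh and Ina and in replicate 2 at Nefm. The larger list of replicate 1 also held a Nefm peak 466 to 585 bp after the start (0.346). A stricter peak of replicate 2 lay there in a coding exon (526 to 585 bp). The coding-exon pattern was seen first in the per-base lists of false discovery rates (FDR) of the cut rate. The counts that follow were chosen after seeing it. A replicate 1 peak that overlapped one of replicate 2 and had its midpoint in a coding exon of the gene within 2 kb after its start occurred at 3 of the 10 genes, Nefl, Nefh and Ina. Over all protein-coding genes the share was 2.63%. Only 4 of the 10 genes have 500 bp or more of coding exon in that stretch, and these are Nefl, Nefm, Nefh and Ina. Among the 3156 protein-coding genes of that kind, with open promoters or not, 8.75% had such a peak, and of the 4 it was 3. Open DNA past the start was not particular to these genes, since Mapt and Stmn2 had intron peaks there in both libraries. At Mapt one lay 675 to 1370 bp after the start in replicate 1 (1.18) and 731 to 1310 bp in replicate 2 (2.00). At Stmn2 one lay 861 to 1160 bp after it in replicate 1 (0.636) and 681 to 1100 bp in replicate 2 (0.796).

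Nefh showed the coding-exon pattern most clearly. Its coding-exon peak had a signal of 1.84 in replicate 1 (chr11:4947081-4947420) and 3.56 in replicate 2 (chr11:4947081-4947440). It lay 644 to 983 bp after the start in replicate 1 and 624 to 983 bp in replicate 2, outside the 500 bp promoter window and within the 1 kb that keeps a peak from counting as distal. Its signal exceeded 84.0% of all peaks in replicate 1 and 91.0% in replicate 2. At the start itself replicate 1 had 389 bp listed with an FDR under 0.05, the lowest 0.00276, and no peak, so the lack of a call there does not show closed chromatin. The coding-exon peak held 7 footprints in replicate 1, of which 4 overlapped one of replicate 2, and 10 in replicate 2, of which 4 overlapped one of replicate 1. In the printed Nefh stretch, 68 bases lay in footprints of replicate 1, 121 in those of replicate 2 and 43 in both.

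Nefl had 4 peaks in each library between its start and 2 kb after it, and each had a counterpart in the other library. The peak over the start had 0.975 in replicate 1 and 1.30 in replicate 2. A coding-exon peak had 0.719 in replicate 1, 318 to 477 bp after the start, and 1.17 in replicate 2, 338 to 717 bp after it. A second coding-exon peak, about 1 kb after the start, had 0.491 and 0.493. The peaks downstream of the start were thus weaker than the one over it in both libraries.

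Ina had a coding-exon peak of 0.858 in replicate 1, 428 to 624 bp after the start, and of 1.83 in replicate 2, 423 to 682 bp after it. The peak over the Ina start had 0.955 and 1.38. The start was therefore the higher of the pair in replicate 1 and the coding exon in replicate 2, which is why the 2 promoter values of Ina come from different peaks. At Nefm the strongest signal within 2 kb lay in an intron, 0.747 in replicate 1 (chr14:68123621-68123680) and 1.96 in replicate 2 (chr14:68123521-68123780). The Nefm start peak was 225 bp wide in replicate 1 and 1040 bp in replicate 2, where it ran 885 bp into the gene.

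**Figure D2:**
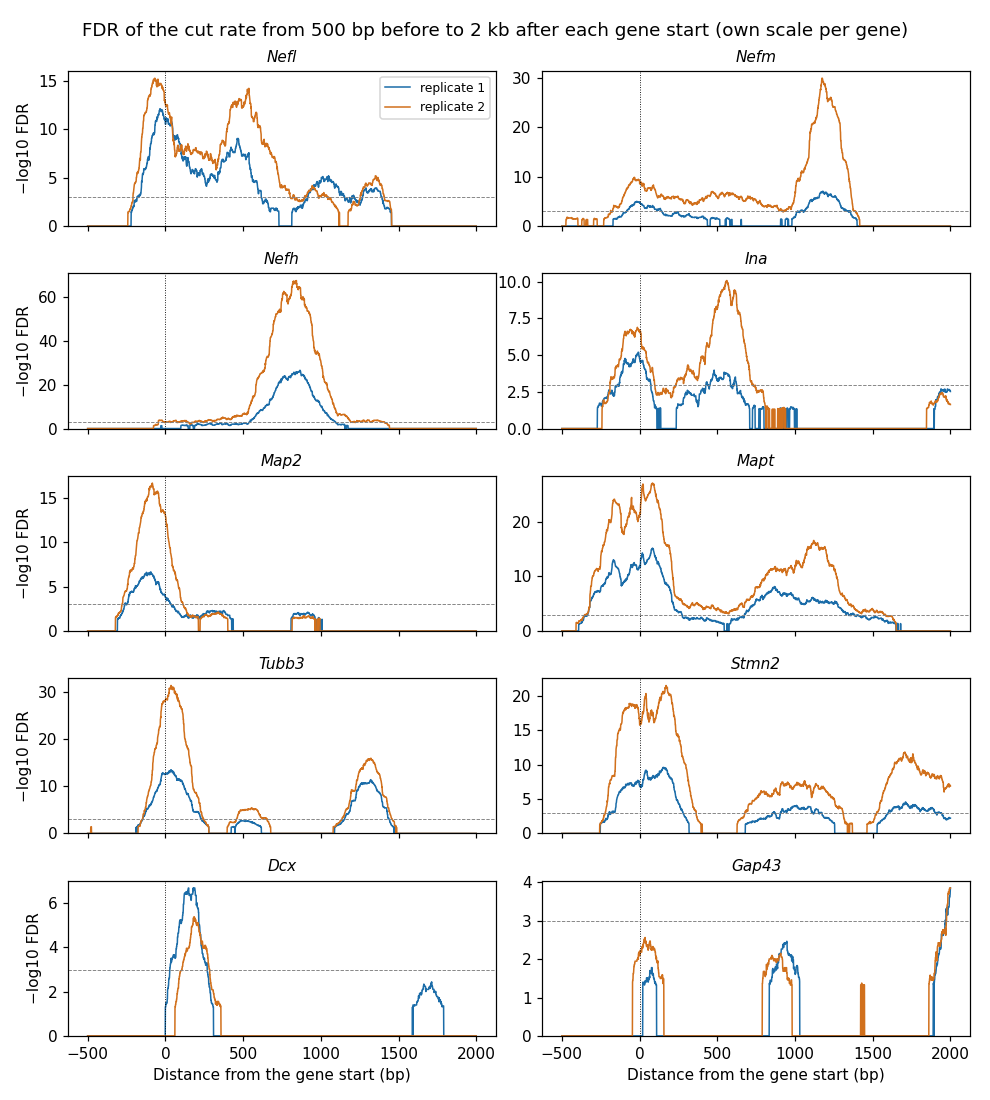
The −log10 of the deposited FDR of the cut rate (vertical axis, own scale per gene) against distance from the gene start in bp, from 500 bp before to 2 kb after it, in replicate 1 and replicate 2. Values are drawn at 0 where no FDR is listed, and the dashed line marks an FDR of 0.001. The highest point of Nefh lies 867 bp after the start in replicate 1 and 843 bp in replicate 2, while that of Nefl lies 36 and 68 bp before the start.

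The 10 genes have 55 annotated transcripts, 37 of them coding, whose starts fall into 24 clusters when starts within 500 bp are joined. Of the clusters, 11 had a peak in both stricter lists. The share of such clusters over all protein-coding genes was not computed, so this count is descriptive only. Map2, which makes long and short isoforms, accounts for 10 clusters over 258 kb. It was open at the gene start (1.19 in replicate 1, 2.43 in replicate 2), 146 kb downstream (1.49 and 2.19) and 212 kb downstream (1.30 and 1.33). The other 7 Map2 clusters had no peak in either list of either library and no position with a listed FDR. Replicate 1 thus had its highest Map2 peak at 146 kb and replicate 2 at the gene start.

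Mapt was open at 1 of 4 clusters and Stmn2 at 1 of 2, in each case the gene start. At Gap43 the order was the other way round. The start of the coding transcript had peaks only in the larger lists, 0.484 in replicate 1 and 0.553 in replicate 2, with a lowest FDR of 0.0166 and 0.00273. Near the internal start, 64.6 kb into the gene and annotated for the non-coding transcript Gap43-202, the stronger peak had 1.81 and 1.58. It lay 63911 to 64130 bp into the gene, within 500 bp of that start but not over it. A nearer peak, 64778 to 64966 bp into the gene in replicate 1 and 64817 to 64955 bp in replicate 2, had 0.630 and 0.659. The nearer peak did not cover the internal start either. The stronger peak covers chr16:42276521-42276740 in both libraries and lies in an intron of the coding transcript. The promoter value of Gap43 thus describes this peak and not the start of its protein-coding message.

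**Figure D3:**
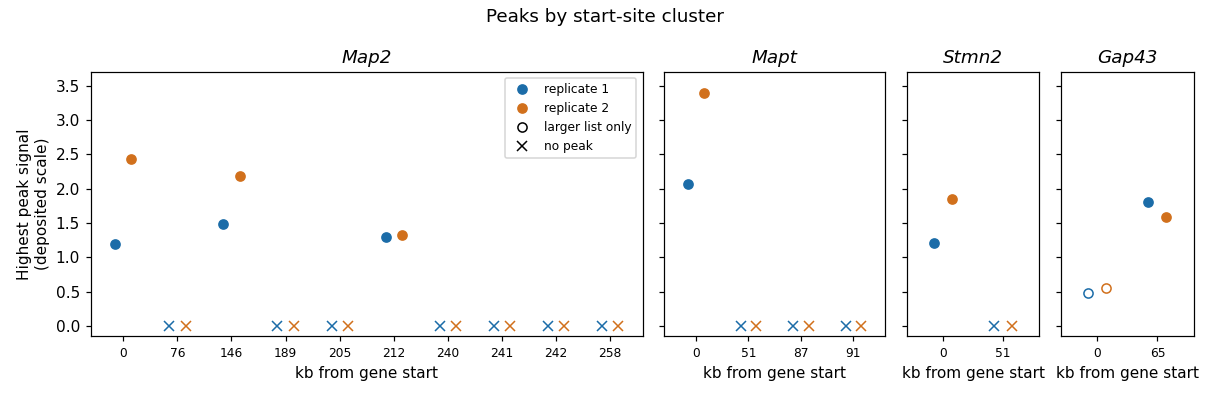
Highest peak signal (deposited scale) at each cluster of annotated start sites of Map2, Mapt, Stmn2 and Gap43, labelled by rounded distance from the gene start in kb, for replicate 1 and replicate 2. Filled points are peaks of the stricter lists, open points peaks of the larger list only, and crosses mark no peak. Of the 10 Map2 clusters, 3 are open. Gap43 is higher at a peak near its internal start than at its gene start.

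Promoter sequence divided the set. The ratio of observed to expected CpG within 500 bp of the start was 0.255 at Stmn2, 0.319 at Dcx and 0.358 at Gap43, and between 0.601 and 0.902 at the other 7 genes. Of the 8785 protein-coding genes with a ratio under 0.4, 16.7% were open, and all 3 of these genes were, Gap43 through peaks near its internal start. Of the 10083 genes at 0.6 and over, 87.0% were open, and 6 of the 7 were. The median signal of open promoters was 1.57 in the CpG-poor class and 3.29 in the CpG-rich class.

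Against promoters of their own class, Stmn2 lay at percentile 48.8 and Dcx at 18.1. Gap43 is not ranked, since its CpG ratio was taken at the gene start and its signal near the internal start. In the CpG-rich class Tubb3 lay at percentile 51.4, Mapt at 39.5 and Map2 at 25.2. The Map2 rank uses a mean of 1.96, whose replicate 1 value came from the cluster 146 kb downstream. At the gene start, where its CpG ratio was taken, the Map2 mean was 1.81. Ina at 13.9, Nefl at 8.81 and Nefm at 2.63 were the lowest of the CpG-rich genes with a percentile.

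Promoter footprints were called in both libraries at 8 of the 10 genes, against 58.2% of protein-coding genes. Nefm and Nefh lacked them. A footprint that overlapped between the libraries was found at 6 genes, Nefl, Ina, Map2, Mapt, Tubb3 and Stmn2, against 54% of genes. Replicate 1 had 56 promoter footprints at the 10 genes, and 20 of them overlapped one of replicate 2 (35.7%); over all protein-coding promoters the share was 58.2%. Replicate 2 had 47, of which 19 overlapped one of replicate 1.

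The overlap differed from gene to gene. Mapt had 10 footprints in each library, and 8 of replicate 1 overlapped one of replicate 2. Map2 had 10 and 8, with 4 overlapping, and Nefl had 9 and 7, with 3 overlapping. Nefm had 6 in replicate 1 and 0 in replicate 2, although its start peak was the wider one in replicate 2. Tubb3 had 3 in replicate 1 and 9 in replicate 2, and 2 of replicate 1 overlapped, those printed above at 28 to 49 and 77 to 97 bp after the start. Footprints depend on depth, and their deposited p-value was the same throughout, so they could not be ranked.

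Short motifs were searched on both strands in the 250 bases before the RefSeq starts, over 32851 windows of that length in the table. A GC box, GGGCGG, occurred at Ina, Map2 and Tubb3 and in 32.7% of all windows. A TATA box, TATAAA, occurred at Dcx alone of the 4 genes and in 12.4% of windows. In the printed Dcx stretch, which lies outside the Dcx peaks, it forms the last 6 bases before the GENCODE start. CCAAT occurred at Dcx and Tubb3 (33.8% of windows) and the KLF motif CCACCC at Dcx, Ina and Tubb3 (28.1%). The E-box CAGCTG occurred at Ina (13.0%), and the partial RFX motif GTTGCC (10.4%) and the SOX motif ACAAAG (16.5%) at Dcx.

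No promoter window of the 4 genes held the partial CRE motif TGACGT (6.47% of windows), the E-box CAGATG (14.4%), the AP-1 motif TGANTCA (6.75%) or the EGR motif GCGTGG (13.5%). Beyond these windows, CAGATG occurred in the Tubb3 intron peak outside its footprints, and TGACGT and GCGTGG occurred in the printed Nefh stretch, each with 5 of 6 bases in capitals. None held the NRF1, NFI, MEF2, CTCF or RE1 motifs; RE1, the element bound by REST, occurred in 0.198% of windows. Inside footprints, a GC box lay wholly within the printed Tubb3 footprint at 77 to 97 bp, and 5 of the 6 bases of a GC box 26 bp before the Map2 start lay in capitals. At Dcx a CCACCC past the GENCODE start lay wholly in a footprint of replicate 1. In the Tubb3 intron peak the partial RFX motif lay wholly in a footprint stretch. The 26 bases of that peak inside footprints of both libraries are part of the 37 marked in replicate 1 and the 34 in replicate 2. A match is a stretch of letters and was not tested as a site of binding. Printed and searched letters are those of the reference GRCm38.p6, and differences of the CAST/EiJ alleles from it were not examined.

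Signal was higher in replicate 2 at most promoter peaks, here as elsewhere. Among 15 promoter peaks of the 10 genes that overlapped between the libraries, 13 were higher in replicate 2, with a median log2 ratio, replicate 2 over replicate 1, of 0.56 and a range of -0.60 to 1.10. Among all 15519 such pairs of protein-coding promoters, 94.5% were higher in replicate 2, with a median of 0.53 (SD 0.30). In steps, the median log2 ratio of the highest promoter peaks was 0.48 over the 9 open genes and 0.43 over all open promoters. The scale of the signal was set by library and its basis is not given in the sources used here; its part in this shift was not tested.

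Dcx departed most from that shift, with a log2 ratio of -0.60, and 23 of the 15519 pairs had a lower one. Signal values were whole multiples of 1 step in each library. In such steps Dcx had 141 in replicate 1 (exact Poisson 95% interval 119 to 166) and 85 in replicate 2 (67.9 to 105). The intervals assume that a step is 1 count and cover counting error only. The 2 Dcx peaks shared 99 bp, of widths 219 bp in replicate 1 and 115 bp in replicate 2, so they did not measure the same bases. On the X chromosome, which carries Dcx, 91.3% of 505 pairs were higher in replicate 2. The stronger Gap43 peak near the internal start was also lower in replicate 2 (-0.19). At the other end lay the coding-exon peak of Ina (1.10), the Map2 gene start (1.03) and Tubb3 (0.97).

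Weak pairs varied more in direction. Of the 3474 pairs with a mean signal under 1, 82.4% were higher in replicate 2, against 95.5% of the pairs from 1 to 2 and 99.3% of those over 2. The median mean signal was 1.35 for the pairs of the 10 genes and 2.04 for all pairs.

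**Figure D4:**
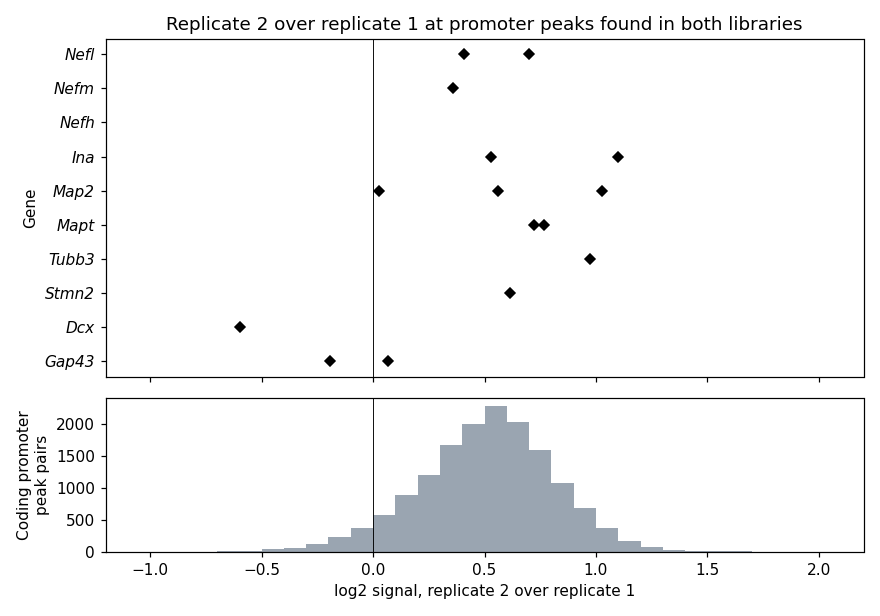
Log2 ratio of signal, replicate 2 over replicate 1, at the 15 promoter peak pairs of the 10 genes (above, 1 diamond per pair) and at all 15519 pairs of protein-coding promoters (below, number of pairs per bin). Dcx and 1 Gap43 peak lie left of 0 and the remaining 13 lie right of it; Nefh has no pair.

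Away from start sites, 26 distinct peaks shared by both libraries lay in the bodies of the 10 genes with 50 kb flanks, each over 1 kb from any annotated start. At least 1 was found for 9 genes, against 73.8% of protein-coding genes, and Dcx had none. The windows of Nefl and Nefm overlap and share 4 peaks, and the longer Nefm model spans Nefl, so the count summed over genes is 30. The median density over the 10 genes was 1.96 per 100 kb, against 1.14 over all protein-coding genes, and 7 of the 10 lay above this gene median. The median mean signal of the 26 peaks was 1.03, against 0.897 over all 31956 shared distal peaks, and 9 of the 26 lay below it. A footprint overlapping between libraries was present in 22 of the 26 (84.6%), against 76.0% of all shared distal peaks.

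By mean signal of both libraries, the strongest distal peaks lay near Mapt, Gap43, Tubb3 and Stmn2. Mapt had 6 distal peaks, the most of any gene here, and 5 of them lay in its introns. The strongest was at -35.4 kb from the start (chr11:104195921-104196080), with 2.59 in replicate 1 and 2.99 in replicate 2, percentile 97.4 of shared distal peaks. The start nearest to it is that of Sppl2c, so its assignment to Mapt rests on distance alone. The strongest peak of Gap43 lay in an intron 71.2 kb into the gene (chr16:42269361-42269560), with 2.14 and 2.94, percentile 96.5.

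The Tubb3 intron peak printed above lay 1.30 kb after the start, with 2.00 in replicate 1 and 2.67 in replicate 2, percentile 95.2. Tubb3 also lies inside the longer gene model Gm20388, and its other distal peak, 49.9 kb before the start, was close to the edge of the flank and within Spire2. Stmn2 had 4 distal peaks, and the strongest lay 85.5 kb after the start, beyond the end of the gene (chr3:8594801-8595000), with 1.93 and 2.59, percentile 94.7. No other protein-coding gene falls in the windows of Stmn2 and Gap43.

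The intermediate-filament genes and Map2 had weaker distal peaks. The one of highest mean for both Nefl and Nefm lay 15.9 kb before Nefl (chr14:68067881-68068080), with 1.59 in replicate 1 and 1.43 in replicate 2, where the Nefm intron peak given above was higher (1.96). Ina had 1 peak, 23.3 kb before its start and within Nt5c2 (chr19:46991261-46991460), with 1.45 and 1.21. Nefh had 2 peaks, both nearer to the start of Ap1b1. The one of higher mean (chr11:4973355-4973467) had 0.775 and 1.08, and the other had 0.851 and 0.887, so their order differed between the libraries. Map2 had 2 peaks in its window of 367 kb, and the stronger, 148 kb into the gene (chr1:66323561-66323771), had 0.934 and 1.20.

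**Figure D5:**
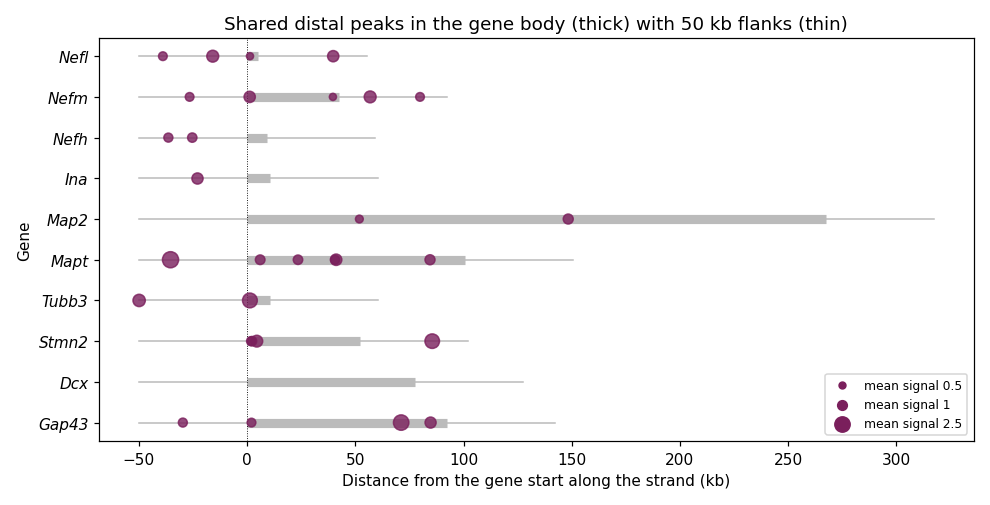
Shared distal peaks of each gene by distance from the gene start along the strand in kb, with the gene body as a thick line and the 50 kb flanks as thin lines; the area of a point follows the mean signal of both libraries. Mapt has 6 peaks, Dcx has none, and the largest points lie at Mapt, Gap43, Tubb3 and Stmn2.

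Other cytoskeleton genes, a fixed list of 44, were open in both libraries in 40 cases, against 55.2% of all protein-coding genes. Their median signal was 3.36, against 2.89 for all open promoters. These genes were not split by CpG class. In the CpG-rich class 87.0% of genes were open, with a median of 3.29. All 11 microtubule-associated genes, 9 of 10 tubulins, all 3 stathmins and all 3 growth-cone membrane proteins were open. So were all 6 genes of a group made up of Dbn1, Cfl1, Dpysl2, Dpysl3, Dpysl5 and Crmp1. Among motors and kinases 5 of 6 were open, and among intermediate-filament genes 3 of 5. By group, the median signal was lowest for the intermediate filaments, 1.46 against 3.14 to 4.21 for the others. It rests on 3 open genes, Vim (0.760), Gfap (1.46) and Lmnb1 (2.06), none of which encodes a neurofilament chain. The 4 genes not open in both stricter lists were Prph, Nes, Tubb6 and Kif5a. Prph, the peripherin of peripheral neurons, had peaks in the larger lists only (0.374 in replicate 1, 0.569 in replicate 2). Nes, the nestin of neural progenitors, had none. Tubb6 had 0.447 in the larger list of replicate 2 only, and Kif5a, a kinesin motor, had 1.72 in the stricter list of replicate 2 and 0.789 in the larger list of replicate 1.

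The tissue label was checked against cell type markers in the same way, again beside the 55.2% of all protein-coding genes that were open. Among 6 markers of cortical excitatory neurons, 3 were open in both stricter lists (Neurod2, Neurod6 and Emx1), and Tbr1 had a stricter peak in replicate 2 only. Promoters were open in both for 1 of 4 interneuron markers (Dlx1), 1 of 4 astrocyte markers (Gfap) and 1 of 4 oligodendrocyte markers (Olig2). Among microglial, endothelial and other-region markers, 4 each, none was open in both stricter lists. In the larger lists the counts in both libraries were 4 of 6 for excitatory neurons and 3 of 4 for astrocytes. They were 1 of 4 each for interneurons, oligodendrocytes, microglia and endothelium, and 0 of 4 for other regions. The share of each cell type in the tissue, and its part in the signals above, was not tested.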

How the data were processed

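Per the file descriptions deposited for both libraries, the authors derived peaks, footprints and the per-position FDR of the cut rate from the filtered mm10 alignments of each library alone, without pooling. The aligner, callers, versions and thresholds are not given in the sources used here. For each peak, the deposited signal was a single number on a scale set for each library, in whole multiples of 0.00692 in replicate 1 and 0.00758 in replicate 2; the median peak held 120 and 122 steps, which limits precision. The deposited footprint p-value was 0.01 throughout, and deposited FDR values were those under 0.05. Where a library had 2 peak lists, the smaller served as the stricter one. The same donor identifier of the strain stands on both libraries, though the animals are labelled separately, so SDs may mix animal and technical spread.

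Coordinates are mm10 (GRCm38.p6), counted from 1. Peaks shared between libraries overlap by at least 1 bp; distal peaks have midpoints over 1 kb from any start site. Percentiles give the share of open promoters, or of shared distal peaks, with a lower mean signal. The annotated genes were GENCODE M21, and Python 3.11.15, pandas 2.3.3 and pysam 0.24.0 were used. Counting was tested on simulated intervals. No test was run, since 1 group of 2 libraries allows none. The members, marker lists and companion list were chosen with earlier results of these data known. All 10 genes are named, as are companion genes without a promoter peak in both libraries and, for each gene, its strongest shared distal peak; other companion and marker names were chosen after their values were seen. Results for some marker genes are not reported here.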

Additional observations from a re-analysis of the deposited data

How the results depend on the processing

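The count of genes with a promoter peak in both libraries was 9 of 10. It was 8 with the gene record start only, where Gap43 dropped out. With a window of 1000 bp it was 10, where Nefh entered through its coding-exon peak. Requiring 1 library gave 9 to 10 genes with a promoter peak, 8 to 9 with a promoter footprint and 28 to 35 distal peaks. Shares of all protein-coding genes for the 1000 bp window or for 1 library are not given here, so those counts are descriptive only. The number of distal peaks followed the definition: instead of 26 it was 42 with the larger peak lists, 16 in the gene body only, 16 with flanks of 10 kb and 44 with flanks of 100 kb, by construction of these windows and lists. A reciprocal overlap of 50% gave 23 and a distance over 2 kb gave 21. Counted by gene, the median log2 ratio, replicate 2 over replicate 1, was 0.61, and 0.48 in steps. The start-region peaks, the peak-by-peak ratios and the coding-exon counts were added after seeing the data. No paired analysis was possible because there is 1 group. Weak peaks limit the reading of Nefh, Nefm, Dcx and the Gap43 start: at this depth a missing call there does not show closed chromatin.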
